A study of Mus musculus with 4 samples.

Results

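Stomach-type transcripts in Apc-mutant intestinal adenomas were described with 10 genes, Gkn1, Gkn3, Muc6, Atp4a, Lipf, Pnliprp1, Gpx5, Wfdc18, Bpifb5 and Ctse. The genes were selected on these same libraries, where most of them were leading genes of a cluster of adenoma cells, and they are 10 of the 27514 genes shared by all 4 gene tables. That adenoma cells carried more of them than other cells was therefore fixed by the choice and is given as a description, with no test. The same choice favours cells that carry several of the genes and positive relations among them, so these are descriptions too. Their levels were read in 9338 epithelial-gated cells, of which 4218 were adenoma-gated, among 11286 cells kept. The label was only partly borne out by what the genes are known for. Gkn1, Gkn3, Muc6, Atp4a, Lipf and Ctse are known from the stomach, whereas Pnliprp1 is known from the exocrine pancreas, Gpx5 from the epididymis and Wfdc18 from the mammary gland, and Bpifb5 belongs to a family of lipid-binding secreted proteins.

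The stomach lining is made of surface pit cells that secrete gastrokines and mucus, neck and gland cells that secrete another kind of mucus, parietal cells that pump acid and chief cells that secrete digestive enzymes. The small intestine does not normally make these products in quantity. Adenomas of Apc-mutant mice arise when the Wnt pathway stays on without its ligands, and their cells carry high levels of Wnt target genes such as Axin2, Notum and Nkd1. Lef1 encodes a transcription factor that acts at the end of this pathway and is induced in such adenomas.

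All mice were C57BL/6, aged 11 weeks and labelled male, and all carried the heterozygous ApcMin allele. The ApcMin group was Lef1 +/+ and the VApcMinL group was Lef1 fl/fl with Villin-Cre, which is active in the intestinal epithelium from development on, and no time of deletion was set. Each group had 2 libraries, of which replicate 1 was prepared with the 10x Genomics 3′ kit in its version 2 (kit 2) and replicate 2 in its version 3 (kit 3). By the study's methods, each library pooled several unsorted, dissociated tumors of similar size and location, and how many mice gave them is not stated. The comparison of the groups asks whether loss of Lef1 changes the level of these genes in adenoma cells.

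Lef1 itself was measured first. In adenoma-gated cells it had 124 UMIs (unique molecular identifiers, that is, counted molecules) in the library labelled ApcMin replicate 1 and 350 in that labelled VApcMinL replicate 1, which is 7.90 and 24.7 CPM (counts per 1000000, that is, UMIs of a gene per 1000000 UMIs of the cells of a class). In the kit 3 pair it had 500 UMIs (31.6 CPM) in ApcMin replicate 2 and 1468 (20.9 CPM) in VApcMinL replicate 2. The kit 2 pair thus went against its labels. Whether the labels of its 2 libraries were exchanged was not tested, and if they were, every kit 2 difference below turns its sign. Libraries are called by their labels throughout. The homeobox gene Msx1, chosen after its values were seen, also turned direction between the kits, with 134 CPM in ApcMin replicate 1 against 24.9 in VApcMinL replicate 1, and 41.5 in ApcMin replicate 2 against 205 in VApcMinL replicate 2. Xist, which is made from an inactive X chromosome, had 16562 UMIs in adenoma-gated cells labelled VApcMinL replicate 1 and 23086 in VApcMinL replicate 2, against 2 and 1 in the ApcMin libraries, although all were labelled male. Y-linked genes had 1503 UMIs in adenoma-gated cells of ApcMin replicate 1, 0 in VApcMinL replicate 1 and 1723 in ApcMin replicate 2. In the kit 2 pair sex could therefore not be told apart from the label, and both ApcMin libraries looked male. Adenoma-gated cells of VApcMinL replicate 2 held 5737 UMIs of Y-linked genes beside Xist, so that library held cells of both sexes. Fabp6, listed as a gene of the distal small intestine, had 1.78 and 1.42 CPM in epithelial-gated cells of the kit 2 libraries (ApcMin, VApcMinL). In the kit 3 libraries it had 922 and 200. Slc10a2 and Mep1a of that list were also higher in kit 3, while Osr2, Slc51b and Guca2a overlapped between the kits. A difference in gut region could not be told apart from the kit. The libraries had from 44660305 to 128247396 UMIs. The limit on mitochondrial UMIs removed from 20.4% to 26.6% of the barcodes of 3 libraries and 61.6% of those of ApcMin replicate 2. Kit 2 libraries shared 9 barcodes and kit 3 libraries 0. Whether any of these differences has a part in the values below was not tested.

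The genes lie on 7 chromosomes, and Gkn1 and Gkn3 sit in 1 cluster on chromosome 6 with Gkn2 between them. In GENCODE M21 on GRCm38, Gkn1 spans chr6:87345650-87350942 and Gkn3 chr6:87383256-87388935, both on the minus strand. Muc6 (chr7:141633456-141655319, minus) and Atp4a (chr7:30712209-30725534, plus) share a chromosome, as do Lipf (chr19:33961187-33976810, plus) and Pnliprp1 (chr19:58728887-58744169, plus). Gpx5 (chr13:21286429-21292731, minus), Wfdc18 (chr11:83709015-83711348, plus), Bpifb5 (chr2:154223742-154240902, plus) and Ctse (chr1:131638306-131675505, plus) lie apart. Sequence upstream of the start was found in the RefSeq promoter table (GRCm38.p6) for 9 of the 10 genes, all but Ctse. The 250 bases before the start were searched on both strands for the words CTTTGAT or CTTTGAA, the core bound by TCF/LEF factors, AGATAA, bound by GATA factors, and TTTATG, bound by CDX factors. Of all 32851 promoters of that length, 7.48% held the TCF/LEF word, 9.99% the GATA word and 10.8% the CDX word. Among the 9 genes, 3 held the TCF/LEF word (Atp4a at 146, Lipf at 215 and Bpifb5 at 67 bases before the start), 2 held the GATA word (Gkn1 at 82 and Muc6 at 194) and 0 the CDX word. These distances are from the RefSeq start, which lies 27 bases inside the GENCODE gene for Gkn1 and 61 bases inside it for Lipf, so the printed windows of both are that much shorter. Such a match is a string of letters and not a bound site, and its absence says only that these letters are not in this window. Shown here are the neighbours Gkn1 and Gkn3, the co-detected Pnliprp1 and Bpifb5, and the other holders of the TCF/LEF word, each 5′ to 3′ and ending before the first base that GENCODE assigns to the gene, with TCF/LEF and GATA words in capitals. The windows are chr6:87350943-87351165 for Gkn1 and chr6:87388936-87389185 for Gkn3 (minus strand), and chr7:30711959-30712208 for Atp4a, chr19:33960998-33961186 for Lipf, chr19:58728637-58728886 for Pnliprp1 and chr2:154223492-154223741 for Bpifb5 (plus strand).
Gkn1: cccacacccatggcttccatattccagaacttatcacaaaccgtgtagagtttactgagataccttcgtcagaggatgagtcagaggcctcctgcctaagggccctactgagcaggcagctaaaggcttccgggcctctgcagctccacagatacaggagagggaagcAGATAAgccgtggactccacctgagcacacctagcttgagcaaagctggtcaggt
Gkn3: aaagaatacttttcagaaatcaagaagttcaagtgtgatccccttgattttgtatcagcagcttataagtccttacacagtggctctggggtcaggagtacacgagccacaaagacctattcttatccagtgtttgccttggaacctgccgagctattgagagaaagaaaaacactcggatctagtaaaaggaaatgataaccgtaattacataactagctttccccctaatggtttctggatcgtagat
Atp4a: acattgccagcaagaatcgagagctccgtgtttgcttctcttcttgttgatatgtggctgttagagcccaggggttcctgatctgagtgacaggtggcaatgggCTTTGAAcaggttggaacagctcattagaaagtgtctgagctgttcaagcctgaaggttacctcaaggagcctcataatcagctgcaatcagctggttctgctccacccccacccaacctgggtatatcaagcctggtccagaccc
Lipf: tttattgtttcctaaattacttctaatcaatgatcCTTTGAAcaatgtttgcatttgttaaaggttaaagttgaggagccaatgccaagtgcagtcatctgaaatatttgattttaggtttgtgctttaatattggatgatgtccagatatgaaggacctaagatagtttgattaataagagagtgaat
Pnliprp1: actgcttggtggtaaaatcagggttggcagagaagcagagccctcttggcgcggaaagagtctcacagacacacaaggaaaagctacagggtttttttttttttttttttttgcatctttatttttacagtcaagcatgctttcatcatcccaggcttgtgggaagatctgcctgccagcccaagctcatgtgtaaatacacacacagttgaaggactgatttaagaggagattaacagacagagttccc
Bpifb5: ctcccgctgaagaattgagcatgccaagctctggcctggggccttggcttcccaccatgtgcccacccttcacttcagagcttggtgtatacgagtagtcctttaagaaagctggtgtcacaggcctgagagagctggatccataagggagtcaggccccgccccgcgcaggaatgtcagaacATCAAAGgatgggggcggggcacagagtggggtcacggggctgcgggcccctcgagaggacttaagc

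The gastrokines were among the more abundant of the genes in every library. Levels are in CPM, and since the assay counts 3′ ends they carry no length term. Gkn1, a protein secreted by gastric pit cells, had 419 CPM in ApcMin replicate 1, 798 in VApcMinL replicate 1, 731 in ApcMin replicate 2 and 479 in VApcMinL replicate 2, counted in adenoma-gated cells. Values given by 4 below follow this order of libraries. The 2 groups overlapped, and the highest and lowest levels differed by less than 2-fold. Gkn3, a gastrokine of the mucous neck and gland cells, had 710, 3011, 1116 and 582 CPM in the same order, highest in the kit 2 library labelled VApcMinL and lowest in the kit 3 library with that label. Muc6, the mucin of gastric gland cells, had 91.9, 350, 194 and 132 CPM, again highest in VApcMinL replicate 1 but lowest in ApcMin replicate 1.

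Ctse was the most even of the 10 genes. It encodes cathepsin E, an aspartic protease of gastric surface cells, and had 349, 545, 454 and 401 CPM in adenoma-gated cells. Atp4a, the catalytic subunit of the acid pump of parietal cells, had 50.9, 18.4, 13.5 and 52.7 CPM. Its libraries fell into a higher and a lower pair, and each pair held 1 library of each group and of each kit. Lipf, the gastric lipase secreted by chief cells, was low throughout, at 22.1, 12.5, 54.4 and 23.3 CPM.

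Among the genes not known as stomach genes, Wfdc18 was the most abundant and Pnliprp1 and Bpifb5 varied most. Wfdc18, a whey acidic protein domain protein, had 1041, 5656, 1560 and 528 CPM in the same order of libraries. Gpx5, a secreted glutathione peroxidase, had 136, 254, 803 and 132, with ApcMin replicate 2 above the rest. Pnliprp1, a relative of pancreatic lipase, had 2.103, 187, 151 and 2.59 CPM. Bpifb5 had 12.9, 371, 404 and 14.2. For both genes VApcMinL replicate 1 and ApcMin replicate 2 were high and the other 2 libraries were low, and neither the label nor the kit separated them. All 10 genes together took 0.283%, 1.12%, 0.548% and 0.235% of the UMIs of adenoma-gated cells.

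**Figure D1:**
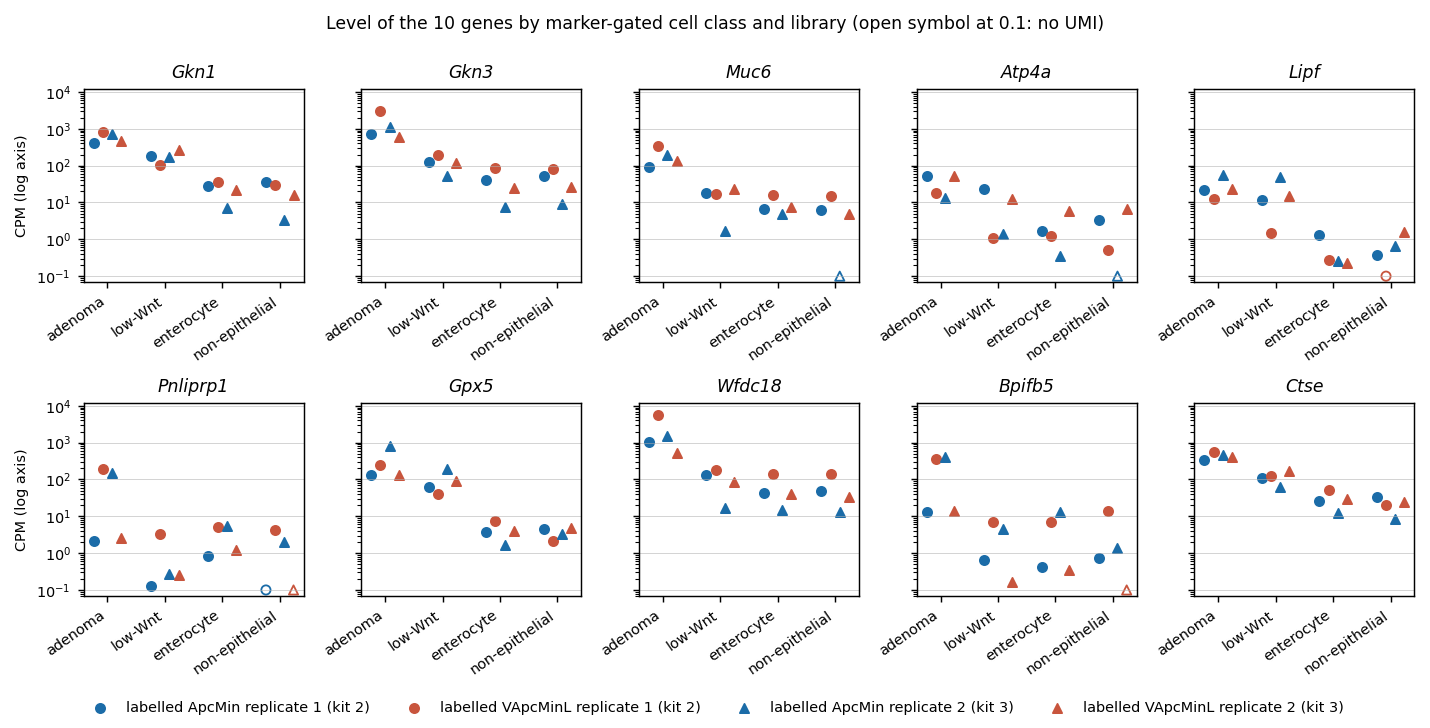
Level of each gene in CPM (log axis) in adenoma-gated, low-Wnt, enterocyte-gated and non-epithelial cells, with 1 point per library (blue, labelled ApcMin; red, labelled VApcMinL; circles, kit 2; triangles, kit 3; open symbols, no UMI). Adenoma-gated cells hold the highest point for all 10 genes, from 52.7 CPM for Atp4a to 5656 for Wfdc18.

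In low-Wnt, enterocyte-gated and non-epithelial cells all 10 genes were lower than in adenoma-gated cells of the same library. Low-Wnt cells, which had few enterocyte transcripts and too few Wnt target UMIs for the adenoma gate, had from 107 to 261 CPM of Gkn1 and from 64.2 to 171 of Ctse. For Lipf in ApcMin replicate 2 the low-Wnt level (49.8) was near the adenoma-gated one (54.4). Enterocyte-gated cells had from 7.15 to 35.4 CPM of Gkn1, from 14.4 to 139 of Wfdc18 and from 0.228 to 1.28 of Lipf. Non-epithelial cells, which are immune, fibroblast, endothelial and mast cells, had from 3.34 to 36.3 of Gkn1, from 12.7 to 139 of Wfdc18 and from 0 to 1.61 of Lipf. The ranges of the 2 classes overlapped for all 3 genes. Barcodes with at most 100 UMIs, which hold free RNA, also carried the genes, with from 104 to 271 CPM of Gkn1 and from 251 to 1519 of Wfdc18. The library with most free Wfdc18, VApcMinL replicate 1, also had the most in enterocyte-gated and non-epithelial cells, and the part of free RNA in those levels was not tested. Secretory classes did not all lie lower. In VApcMinL replicate 2 the 37 Paneth-gated cells had 224 CPM of Gpx5, against 132 in adenoma-gated cells, and the 25 enteroendocrine-gated cells had 563 of Gkn3, against 582. Both values rest on few cells. A single Paneth-gated cell held 216 of the 278 Gpx5 UMIs, and a single enteroendocrine-gated cell held 41 of the 122 Gkn3 UMIs. The ratio of the adenoma-gated to the enterocyte-gated level ran from 15.3 to 102 for Gkn1, from 12.7 to 108 for Wfdc18 and from 10.6 to 36.1 for Ctse over the libraries. Adenoma-gated cells held from 79.7% to 89.2% of the epithelial UMIs of Gkn1 and from 94.2% to 97.2% of those of Bpifb5.

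The share of cells with a UMI separated common from rare genes. Each cell was thinned to 2000 UMIs, so that shares could be compared across depths, and intervals are exact 95% binomial intervals that cover counting error only. Ctse was detected in 45.9% (42.1 to 49.7), 57.3% (53.5 to 61.1), 51.2% (46.3 to 56.1) and 46.2% (44.2 to 48.2) of adenoma-gated cells. Wfdc18 was detected in 44.9%, 77.8%, 47.3% and 34.95%, Gkn3 in 39.7%, 59.4%, 38.4% and 36.0%, and Gkn1 in 35.5%, 43.1%, 38.2% and 37.0%. These 4 genes were common in every library, and the share of Gkn1 moved by less than 8 points across the libraries. Muc6 came next, from 15.1% to 35.2%, and Gpx5 from 8.33% to 20.05%. Atp4a (0.725% to 4.45%) and Lipf (0.877% to 2.66%) were rare in all 4 libraries. Pnliprp1 was detected in 0.145%, 11.0%, 7.005% and 0.288% and Bpifb5 in 1.01%, 23.0%, 17.4% and 0.6999%. Their intervals in the 2 high libraries (4.74 to 9.91 and 13.9 to 21.4 in ApcMin replicate 2) did not touch those in the 2 low ones. In enterocyte-gated cells, which served as background, Ctse was detected in 1.84% to 7.36%, Wfdc18 in 2.65% to 25.9% and Bpifb5 in 0 to 1.31% of cells. With 0 Bpifb5-positive cells among the 254 thinned enterocyte-gated cells of ApcMin replicate 1, a share of cells with a UMI of up to 1.18% is allowed by 3 counts, and the exact interval reached 1.44%. At full depth, with medians from 17616.5 to 32829.5 UMIs per adenoma-gated cell, Ctse was detected in 85.7% to 90.9% of them.

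**Figure D2:**
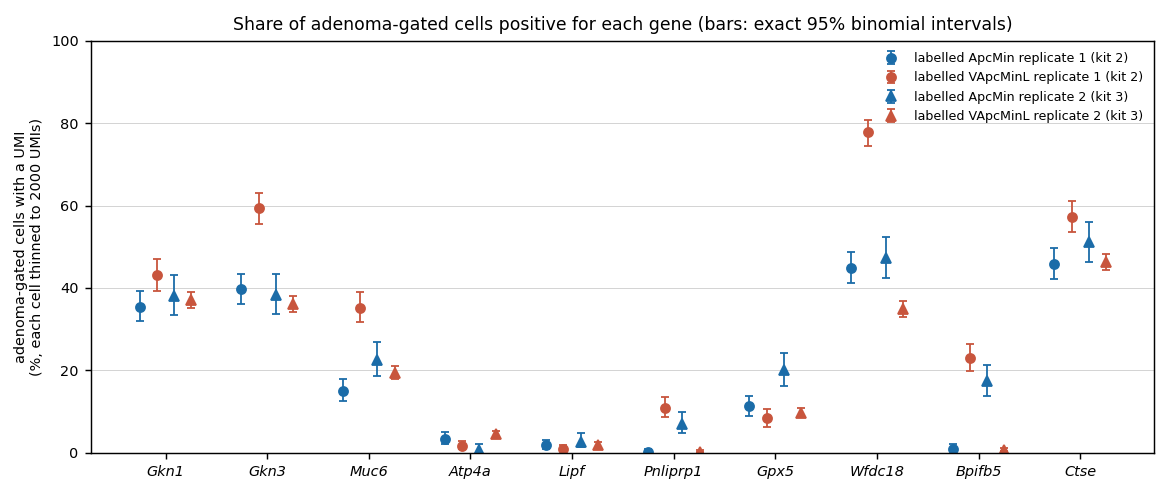
Share of adenoma-gated cells (%) with a UMI of each gene after thinning to 2000 UMIs, with exact 95% binomial intervals, by library (blue, labelled ApcMin; red, labelled VApcMinL; circles, kit 2; triangles, kit 3). Pnliprp1 and Bpifb5 stand above 5% in VApcMinL replicate 1 and ApcMin replicate 2 and near 0 in the other libraries.

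Adenoma-gated cells often carried several of the genes, which the choice of the genes favoured. After thinning, the mean number detected per adenoma-gated cell was 1.99, 3.18, 2.45 and 1.91 of 10. At least 3 were detected in 36.0%, 68.6%, 49.8% and 34.2% of these cells and none in 17.9%, 3.07%, 10.4% and 21.04%. At least 3 were detected in 5.88% to 10.6% of low-Wnt cells, in 0% to 5.88% of goblet-gated cells, in 0% to 1.96% of enterocyte-gated cells and in 0% to 1.27% of non-epithelial cells. The highest number in a thinned cell was 6, and at full depth it was 9, so no cell carried all 10.

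A few cells held most of the UMIs of the rare genes. In adenoma-gated cells at full depth, the 5% of cells with the most UMIs held from 20.1% to 27.8% of the Ctse UMIs and from 37.8% to 46.8% of those of Gkn1. For Lipf they held from 96.5% to 100% and for Atp4a from 80.5% to 89.1%. Lipf was carried by few cells, with a UMI in 2.34% to 7.97% of adenoma-gated cells, so its share in the top 5% mostly restates that it was rare. The single richest cell held 366 of the Lipf UMIs of ApcMin replicate 2, which is 42.6% of them, and only 7, 3, 10 and 32 cells of the 4 libraries had 10 or more Lipf UMIs. For Gpx5 the share in the top 5% ran from 65.5% to 91.8%, and the richest cell had 978 UMIs. Group differences in Lipf and Atp4a thus rest on small numbers of cells. The low ends of the Pnliprp1 and Bpifb5 differences do so too. In ApcMin replicate 1 and VApcMinL replicate 2, Pnliprp1 had 33 and 182 UMIs and Bpifb5 203 and 997. Only 1.30% and 1.73% of cells there had Pnliprp1 and 2.17% and 3.09% had Bpifb5. That the top 5% of cells held 100% of each was therefore fixed.

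The genes were not detected as 1 block. Across adenoma-gated cells of each library, log levels (natural log of UMIs per 10000 plus 1) were correlated as a description. The points share a library and differ in depth, with 691, 684, 414 and 2429 cells. Most of the genes were chosen as leading genes of a cluster in these libraries, which favours positive r and co-detection among them. A first set of Gkn1, Gkn3, Muc6, Ctse and Wfdc18 varied together, with a mean Pearson r over libraries of 0.51 for Gkn1 and Gkn3 (0.37 to 0.58) and 0.50 for Muc6 and Wfdc18 (0.40 to 0.59). The loosest pair of this set was Gkn1 and Wfdc18 (mean r 0.18, and -0.09 in ApcMin replicate 2). Pnliprp1 and Bpifb5 formed a second set (mean r 0.45, from 0.42 to 0.48), which varied against the gastrokines (mean r of Gkn1 and Bpifb5 -0.23, from -0.41 to -0.07). In ApcMin replicate 1 and VApcMinL replicate 2 the r of Pnliprp1 and Bpifb5 rests on few cells, since 1.30% and 1.73% of cells had Pnliprp1. Lipf and Gpx5 had a weaker relation (mean r 0.21, from 0.13 to 0.27). Atp4a had its highest mean r with Ctse (0.23).

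**Figure D3:**
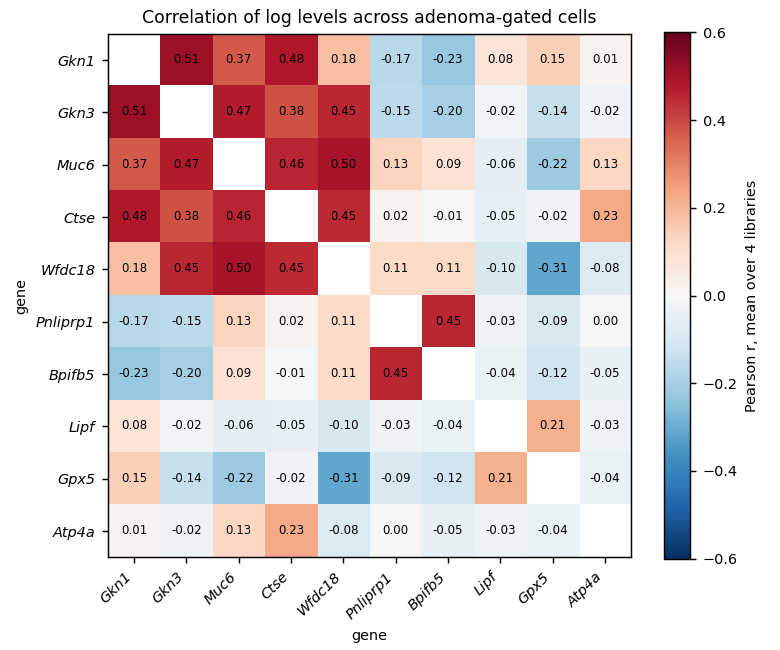
Pearson r between the log levels of each pair of genes across adenoma-gated cells, averaged over the 4 libraries (red, positive; blue, negative). Gkn1, Gkn3, Muc6, Ctse and Wfdc18 have positive values among themselves, Pnliprp1 pairs with Bpifb5 (0.45), and Gpx5 and Wfdc18 have the lowest value (-0.31).

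Co-detection after thinning linked the gastrokines with each other and Pnliprp1 with Bpifb5, while Muc6 and Wfdc18 went with both. Muc6-positive adenoma-gated cells more often had Bpifb5 than Muc6-negative ones in all 4 libraries (by 1.76 to 9.47 percentage points), and so did Wfdc18-positive cells (by 0.916 to 10.9 points). Wfdc18 was less frequent in Gkn1-positive than in Gkn1-negative cells of ApcMin replicate 2 (-5.94 points) and more frequent in the other 3 libraries. Among Gkn1-positive adenoma-gated cells, 51.0%, 75.3%, 53.8% and 53.8% also had Gkn3, against 33.4%, 47.3%, 28.9% and 25.6% of Gkn1-negative cells. In VApcMinL replicate 1, 66.7% of the 75 Pnliprp1-positive cells had Bpifb5, against 17.6% of the other cells, and in ApcMin replicate 2 51.7% of 29 had it, against 14.8%. The other 2 libraries had fewer than 20 Pnliprp1-positive cells and gave no value. Bpifb5-positive cells were poor in Gkn1, with 25.5% against 48.4% in VApcMinL replicate 1 and 9.72% against 44.2% in ApcMin replicate 2. Gpx5-positive cells were poor in Wfdc18 in all 4 libraries, with 20.5%, 33.3%, 18.1% and 9.75% positive against 48.0%, 81.8%, 54.7% and 37.7% of Gpx5-negative cells. The same Gpx5-positive cells more often had Gkn1, from 39.0% to 63.2% against 32.6% to 41.3%. The smallest of these differences was 2.18 points in VApcMinL replicate 2.

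The sets also lay at different levels of the Wnt target genes. Adenoma-gated and low-Wnt cells were binned by the UMIs of 12 Wnt targets per 10000 UMIs. The list holds none of the 10 genes, but it also set the adenoma gate at 4. Wfdc18 and Muc6 were highest in the top bin (16 or more) in all 4 libraries, where Wfdc18 had 3142, 8663, 2699 and 1461 CPM against 465, 1361, 262 and 215 in the bin from 4 to 8. Pnliprp1 and Bpifb5 lay mostly in the top bin, where Pnliprp1 had 27.9, 408, 326 and 15.9 CPM against at most 9.03 in any other bin. Bpifb5 had 210, 787, 825 and 111 CPM there, and 0.119, 5.49, 2.05 and 0.529 in the bin from 4 to 8. Bpifb5 was thus present in the top bin of the libraries with low overall levels too. That bin held 53 of the adenoma-gated cells of ApcMin replicate 1, 344 of VApcMinL replicate 1, 199 of ApcMin replicate 2 and 356 of VApcMinL replicate 2. Gpx5 went the other way, with 193, 545, 1948 and 203 in the bin from 4 to 8 and 12.8, 4.71, 134 and 12.05 in the top bin. Lipf was at or below 7.13 CPM in the top bin of every library. Gkn1 was highest in the middle bins of VApcMinL replicate 1 and ApcMin replicate 2 and in the top bin of the other 2 libraries.

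**Figure D4:**
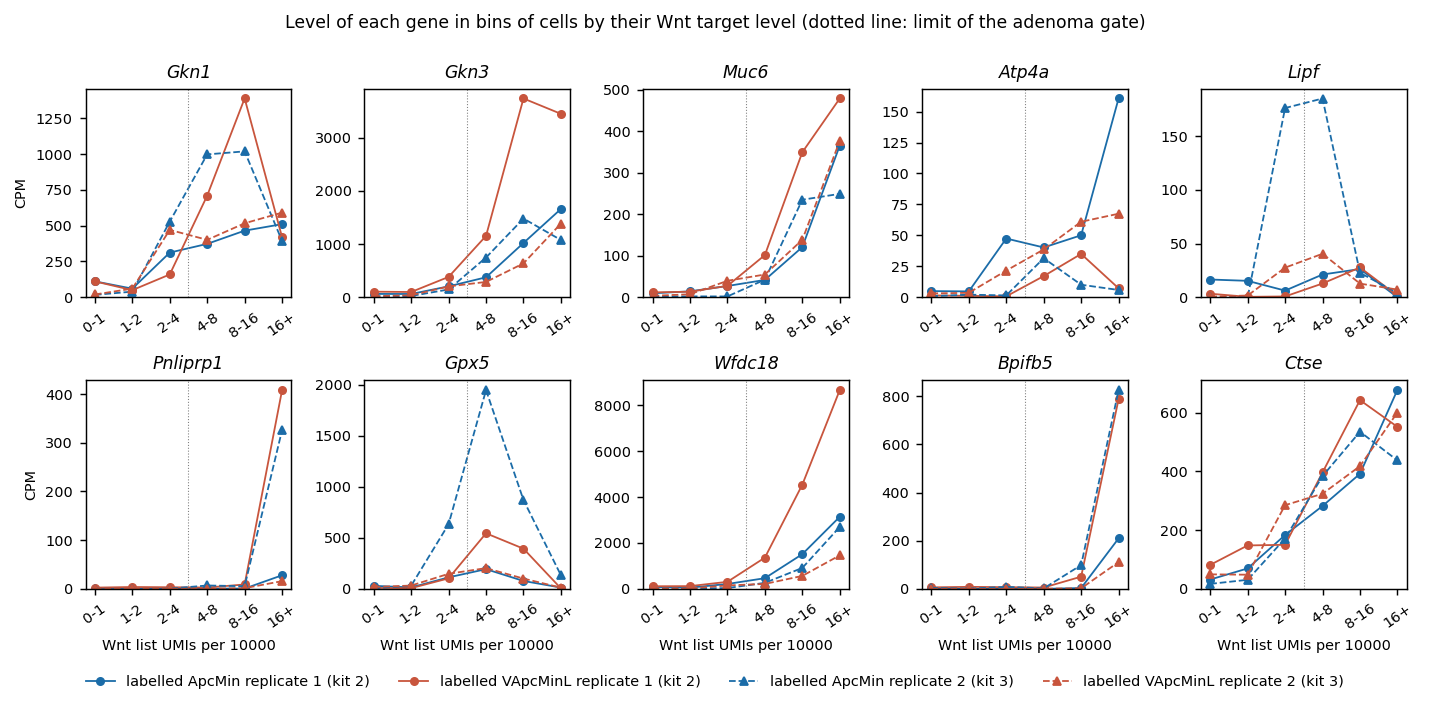
Level of each gene (CPM) in adenoma-gated and low-Wnt cells binned by the UMIs of 12 Wnt target genes per 10000 UMIs, with 1 line per library (blue, labelled ApcMin; red, labelled VApcMinL; solid, kit 2; dashed, kit 3) and the adenoma gate as a dotted line. Pnliprp1 and Bpifb5 rise in the top bin, whereas Gpx5 peaks in the bin from 4 to 8, at 1948 CPM in ApcMin replicate 2.

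Cells that carried more of the genes differed in other measures. Adenoma-gated cells with at least 3 genes detected had 12.03, 26.2, 35.3 and 24.9 CPM of Lef1, against 5.26, 6.37, 18.5 and 17.8 in cells with none. Lef1 was higher in the cells with at least 3 in each library, and the cells with none in VApcMinL replicate 1 were only 21 with 3 Lef1 UMIs. The mean Wnt target level was also higher in each library, at 10.9, 23.9, 21.8 and 12.7 against 7.13, 10.6, 11.5 and 9.14 UMIs per 10000. The share of cells with a UMI of 6 cell cycle genes, after thinning, was 41.0%, 38.6%, 41.3% and 41.8% in the cells with at least 3, and 51.6%, 33.3%, 65.1% and 60.7% in the cells with none. It was lower in 3 of the 4 libraries, and the library in which it was not was VApcMinL replicate 1.

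Neighbouring genes on the chromosome were detected beside some of the 10 but not others. Gkn2, another gastrokine, lies 3758 bases from Gkn3 and 22414 from Gkn1 and had 38.2, 77.2, 95.6 and 40.6 CPM in adenoma-gated cells. Pnliprp2, next to Pnliprp1 at 15549 bases, had 0.510, 88.0, 79.7 and 1.69 and was high in the same 2 libraries. Pnlip on the other side had at most 0.141. Gpx6, at 19393 bases from Gpx5, had 20.3, 67.5, 75.9 and 20.4, and Bpifb1, at 3372 bases from Bpifb5, had 21.9, 124, 66.1 and 14.5, whereas Bpifb9a on its other side had 0 in every library. Next to Lipf, Gm5097 had 0 and Lipk at most 0.256. Next to Ctse, Avpr1b had at most 0.0285 and Rab7b at most 2.15.

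Some other stomach genes reached 5 CPM in epithelial-gated cells and others did not. The share of all genes that reached this level is not given, so the counts below describe the lists only. All 3 other pit cell genes on the list passed 5 CPM, namely Gkn2, the trefoil peptide Tff1 (89.4, 259, 64.2 and 23.6 in adenoma-gated cells) and the surface mucin Muc5ac (20.6, 7.61, 18.4 and 21.7). The 3 other neck and pyloric gland genes did so too. Tff2, the trefoil peptide of neck cells, had 138, 855, 607 and 52.3 and the water channel Aqp5 40.9, 181, 155 and 32.4, and both were highest in VApcMinL replicate 1 and ApcMin replicate 2. Of 5 other chief cell genes, only the pepsinogen Pgc passed that level (16.8, 41.3, 56.5 and 48.9), while Gif, which encodes intrinsic factor in mice, had at most 0.823 and Chia1 0. Atp4b, the partner subunit without which Atp4a forms no working pump, had at most 0.755 CPM, and Slc26a7 was at 0. Of the 4 other parietal genes only the widely used channel Kcnq1 passed (49.3, 30.3, 33.3 and 52.4). Of 12 stomach regulator and junction genes, 8 reached 5 CPM in epithelial-gated cells. Among the 8, Onecut2, Gata4 and Gata6 had overlapping ranges in adenoma-gated and enterocyte-gated cells. Pdx1 was lower in adenoma-gated (3.86 to 7.33) than in enterocyte-gated cells (8.19 to 17.5). Onecut2, Gata4 and Pdx1 were also listed as genes of the proximal small intestine. The junction genes Cldn18 (6.18 to 23.4 in adenoma-gated cells) and Vsig1 (13.2 to 36.0) and the regulator Foxa2 (9.16 to 29.8) were among the 8 too. So was Anxa10, which was lower in adenoma-gated (9.09 to 36.7) than in enterocyte-gated cells (60.7 to 156). Sox2, a stomach transcription factor, had at most 0.823, and Capn8, Capn9 and Barx1 at most 1.01. The intestinal factor Cdx2 was also present, at 57.9, 29.7, 26.9 and 57.3 CPM against 85.4 to 102 in enterocyte-gated cells. Of 7 other pancreatic acinar genes, Pnliprp2 and Clps passed 5 CPM in epithelial-gated cells, and Cpa1 and Prss2 had 0 in adenoma-gated cells of every library.

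Genes whose level was most like the sum of the 10 across adenoma-gated cells were ranked by mean Pearson r over the libraries, among 11547 genes detected in at least 2% of these cells in each library. The first were Fxyd3, a regulator of ion pumps (mean r 0.72, from 0.68 to 0.78), and Clu, which encodes the secreted chaperone clusterin (0.72, from 0.66 to 0.76). The tetraspanin Cd9 (0.51) and the lysosomal hydrolase Ggh (0.51) followed. The other 8 of the first 12 were Cela1, Tesc, Prdx1, Habp2, Ctsb, Itm2b, Lamp2 and Prom1, with mean r from 0.48 to 0.44. Fxyd3 had 1255, 2225, 1405 and 1126 CPM in adenoma-gated cells, in the order used above, against 18.4 to 77.9 in enterocyte-gated cells. Not all of the 12 were higher in adenoma-gated cells. Itm2b had from 367 to 636 in them, against 679 to 990 in enterocyte-gated cells. The ranges of Prdx1 overlapped (1306 to 2494 against 1821 to 2192). The sum is led by Wfdc18 and Gkn3, the most abundant of the 10.

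The groups labelled VApcMinL and ApcMin were then compared on UMIs summed per library, with the kit as a block, with the quasi-likelihood F test of edgeR and p values adjusted over all genes after Benjamini and Hochberg. Of the 10 genes, 0 passed in epithelial-gated cells, against 0% of all 14603 genes tested, and 0 passed in adenoma-gated cells, against 0% of 13123. At an unadjusted p of 0.05, 56 and 37 of all genes passed, and 1 of the 10 genes, Lipf in adenoma-gated cells, was among the 37. DESeq2 called 19 and 4 of all genes at its adjusted p, none of which was one of the 10. The median log2 difference of the 10 genes was 0.50 in epithelial-gated and 0.20 in adenoma-gated cells, against 0.02 and 0.01 over all genes tested.

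Lipf and Muc6 had the smallest unadjusted p values. In adenoma-gated cells Lipf had a log2 difference (VApcMinL minus ApcMin) of -1.03 (SE 0.18; edgeR, unadjusted p = 0.00584, adjusted p = 1.00). It was -0.48 with the stricter gate and -0.45 without ApcMin replicate 2. Lipf was lower in the library labelled VApcMinL in both kits (-0.82 and -1.22, or 0.82 and -1.22 with the kit 2 labels exchanged). Its levels in the groups overlapped (22.1 and 54.4 against 12.5 and 23.3 CPM). Sex went with the label in part, since both ApcMin libraries looked male and VApcMinL replicate 1 did not. Inside VApcMinL replicate 2, which held both sexes, Lipf had 12.7 CPM in adenoma-gated cells where only Xist was found. Where only Y-linked genes were found it had 30.4. The part of sex in the Lipf difference was not tested. Muc6 in epithelial-gated cells had 56.0, 151, 60.2 and 98.4 CPM, higher in both VApcMinL libraries, with a log2 difference of 0.98 (SE 0.41; edgeR, unadjusted p = 0.0571, adjusted p = 1.00). The other adenoma-gated differences lay between -0.85 for Gpx5 and 0.69 for Muc6, with SEs from 0.25 for Ctse to 9.63 for Pnliprp1, so a change of several fold in Pnliprp1 or Bpifb5 would not have been detectable with these libraries.

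The 2 kit pairs moved in opposite directions for most of the genes in adenoma-gated cells. This was so for 9 of the 10, all but Lipf, against 68.2% of all genes tested, and 4 of them (Atp4a, Pnliprp1, Wfdc18 and Bpifb5) moved by at least 2-fold in each pair, against 4.92%. Pnliprp1 had a log2 difference of 6.43 in the kit 2 pair and -5.83 in the kit 3 pair, and Bpifb5 4.83 and -4.82. Atp4a had the reverse signs, -1.46 and 1.96. In epithelial-gated cells 5 genes moved in opposite directions, against 72.2% of all genes, and 3 of them (Atp4a, Pnliprp1 and Bpifb5) by at least 2-fold in each pair, against 5.65%. With 1 library per group and kit, the difference between the pairs itself could not be tested. These counts depend on the kit 2 labels. Exchanging the labels turns every kit 2 sign, so the counts with exchanged labels follow from those above and are no separate result. With those exchanged, an alternative chosen after seeing the data, only Lipf of the 10 moved in opposite directions in adenoma-gated cells, against 31.7% of all genes. In epithelial-gated cells 5 genes did (Gkn1, Gkn3, Muc6, Lipf and Ctse), against 27.7%.

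**Figure D5:**
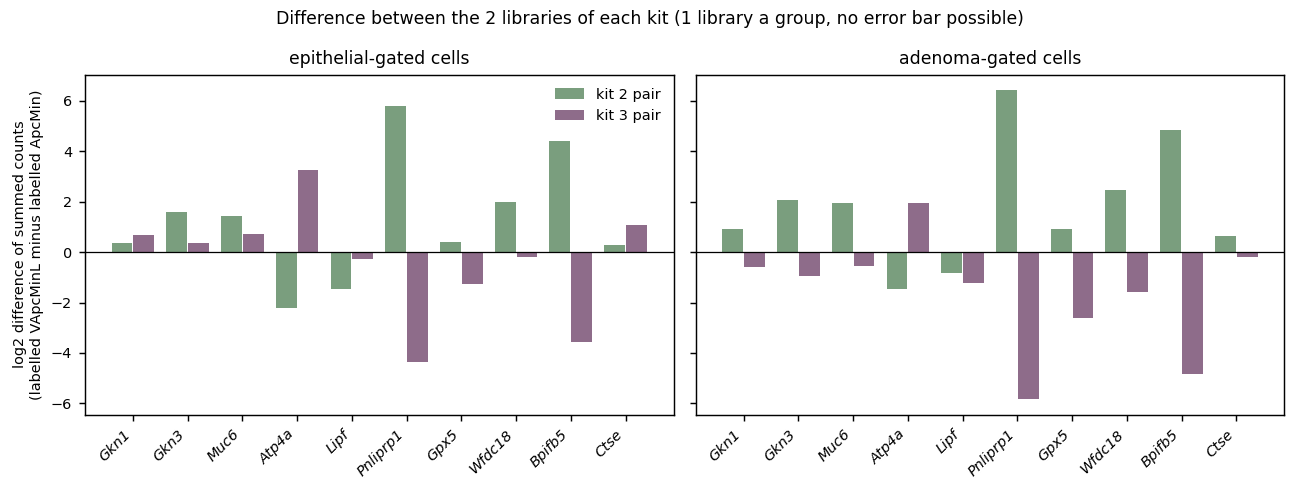
Log2 difference of each gene between the libraries labelled VApcMinL and ApcMin within each kit (green, kit 2; purple, kit 3), in epithelial-gated (left) and adenoma-gated cells (right), with 1 library per bar end and hence no error bar. Pnliprp1 (6.43 and -5.83) and Bpifb5 (4.83 and -4.82) point in opposite directions in adenoma-gated cells, and Lipf points down in both pairs.

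In epithelial-gated cells 4 genes, Gkn1, Gkn3, Muc6 and Ctse, were higher in both VApcMinL libraries than in both ApcMin libraries, against 12.3% of all genes with groups that did not overlap in either direction. Gkn1 had 282 and 237 CPM in the ApcMin and 361 and 378 in the VApcMinL libraries, and Ctse 224 and 147 against 275 and 311. In adenoma-gated cells 0 of the 10 genes were apart, against 9.01% of all genes. With the kit 2 labels exchanged these 4 genes overlapped in epithelial-gated cells and another 4 did not (Atp4a, Pnliprp1, Gpx5 and Bpifb5), against 45.8% of all genes. In adenoma-gated cells 9 genes, all but Lipf, then did not overlap, against 33.2%. The share of adenoma-gated among epithelial-gated cells was 43.6%, 34.2%, 22.4% and 62.2%, and its part in the epithelial-gated values was not tested. The thinned share of epithelial-gated cells positive for Muc6 was 6.80% ± 1.36 (SD, n = 2) in ApcMin and 13.5% ± 0.58 (n = 2) in VApcMinL. For Wfdc18 it was 19.2% ± 8.15 and 33.9% ± 12.5. In two-sided exact permutation tests over the 4 libraries the smallest p possible is 0.333, which Gkn3, Muc6, Wfdc18 and Ctse reached, so no share could pass.

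Cells of both sexes in VApcMinL replicate 2 gave a look within 1 library. Of its adenoma-gated cells, 623 had Xist and no Y-linked UMI and 1362 had Y-linked and no Xist UMIs. The first had 479 and the second 478 CPM of Gkn1, and 569 and 590 of Gkn3. Wfdc18 had 702 and 458, Gpx5 58.4 and 171, and Lipf 12.7 and 30.4. The cells come from at least 2 animals in 1 library, without replicates, so these values carry no test. Another 231 cells had UMIs of both kinds, as doublets or free RNA give, and were left out of both sets. Bpifb5 was low in both sets (6.90 and 16.7), as it was in the library as a whole.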

How the data were processed

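Single-cell RNA from small intestinal adenomas was measured in 4 libraries. The authors deposited raw UMI counts per gene and barcode for all barcodes, with no cells selected, and the study's methods name Cell Ranger 2.1.1 on mm10, while a later version stands in the kit 3 file headers. Barcodes with at least 2000 UMIs of shared genes and at most 20% mitochondrial UMIs were kept, and doublets were not removed in the main analysis. Epithelial-gated cells had at least 3 of 8 epithelial markers and 4 times as many UMIs of these as of 21 markers of other cells. Adenoma-gated cells had under 1% of enterocyte-list UMIs, at least 4 UMIs of 12 Wnt targets per 10000 and no secretory class, and 180, 97, 52 and 315 cells lay near that limit (3 to 5). Thresholds were set after the marker distributions were seen, and 7 genes of the list of other cells (haemoglobins, Cdh5, Flt1 and Pdgfra) were then left out of the gate. The 10 genes and all lists were chosen with earlier results of these data known.

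Counts were summed per library, since cells are not replicates, and tested with edgeR 4.0.16 (TMM, minimum count 10, kit as a block, call at an adjusted p of 0.05). SEs were taken as the log2 difference over the square root of the F value. Replicate numbers mark the kit in the labels, and deviations from group means correlated at r = 0.18 (epithelial) and 0.21 (adenoma) between libraries of 1 kit. On simulated counts the test was run with known changes. The simulation gave every gene the same dispersion and held no kit effect, so it checks the code and not what these libraries could detect. Nothing in the labels shows that libraries came from separate mice, so p values may measure technical spread. DESeq2 1.42.0, other filters and gates, Scrublet in scanpy 1.11.5 and leaving out libraries were alternatives. Named genes were all 10, list genes above 5 CPM in epithelial-gated cells, chromosomal neighbours, and the 12 most alike genes. List genes below that level were named beside their list to show which members were absent, and were chosen after their values were seen.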

Additional observations from a re-analysis of the deposited data

Results flagged for a closer look

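Some genes moved in 1 direction in the kit 2 pair and in the other in the kit 3 pair, by at least 2-fold in each (log2, labelled VApcMinL minus labelled ApcMin). In adenoma-gated cells these were Pnliprp1 (6.43 and -5.83), Bpifb5 (4.83 and -4.82), Wfdc18 (2.44 and -1.56) and Atp4a (-1.46 and 1.96). In epithelial-gated cells they were Pnliprp1 (5.79 and -4.37), Bpifb5 (4.41 and -3.56) and Atp4a (-2.21 and 3.27). The difference between the pairs was not tested, because each pair has 1 library per group. The signs rest on the kit 2 labels, and in that pair Lef1 was higher in the library labelled VApcMinL. With the kit 2 labels exchanged, the adenoma-gated differences of kit 2 and kit 3 were -6.43 and -5.83 for Pnliprp1, -4.83 and -4.82 for Bpifb5, -2.44 and -1.56 for Wfdc18, and 1.46 and 1.96 for Atp4a. That each pair then has 1 sign is fixed, because the exchange turns the kit 2 sign of genes picked for opposite signs. It says nothing on which labels are right.

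The library labelled VApcMinL replicate 1 and that labelled ApcMin replicate 2 were alike in Pnliprp1, Bpifb5 and Atp4a. They also had more Wnt target UMIs in adenoma-gated cells, at 1996 and 1904 CPM for the 12 genes together, than ApcMin replicate 1 (875) and VApcMinL replicate 2 (1031). The part of the Wnt level in the pattern was not tested.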

How the results depend on the processing

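Of the 10 genes, 0 were called under any alternative that gave a test. Counts over all genes of 0 became 2 (epithelial-gated) and 1 (adenoma-gated) with no filter on low counts and 19 and 4 with DESeq2, and stayed at 0 and 0 with no replicate block. Leaving out each library gave from 0 to 0 and from 0 to 1 calls, the 1 call coming without VApcMinL replicate 1. In those fits, made without the block, the lone library was assumed to vary like the other group.

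Log2 changes turned sign for Atp4a with at most 10% mitochondrial UMIs (-0.37 in epithelial-gated, -0.47 in adenoma-gated cells) and for Bpifb5 in adenoma-gated cells with no replicate block (0.0593) and DESeq2 (0.002). With the kit 3 pair alone, an alternative chosen after seeing the data that allows no test and no count of calls, the changes of Pnliprp1 (-4.37), Wfdc18 (-0.21) and Bpifb5 (-3.56) in epithelial-gated and of Gkn1 (-0.61), Gkn3 (-0.94), Muc6 (-0.55), Pnliprp1 (-5.83), Wfdc18 (-1.56) and Ctse (-0.18) in adenoma-gated cells turned sign. With each library left out, log2 changes in epithelial-gated cells ran from 0.29 to 0.56 for Gkn1, -0.0432 to 1.76 for Gkn3, 0.53 to 1.39 for Muc6, -1.37 to 2.39 for Atp4a, -1.74 to -0.25 for Lipf, -3.65 to 4.85 for Pnliprp1, -1.27 to 0.25 for Gpx5, -0.67 to 2.17 for Wfdc18, -2.85 to 3.49 for Bpifb5 and 0.28 to 0.91 for Ctse. In adenoma-gated cells they ran from -0.31 to 0.56 for Gkn1, -0.70 to 1.80 for Gkn3, -0.14 to 1.39 for Muc6, -0.83 to 1.498 for Atp4a, -1.51 to -0.45 for Lipf, -4.82 to 5.41 for Pnliprp1, -1.92 to 0.39 for Gpx5, -1.36 to 2.19 for Wfdc18, -3.82 to 3.81 for Bpifb5 and -0.0649 to 0.51 for Ctse. With the kit 2 labels exchanged, also chosen after seeing the data and with no test, the genes of the 10 that moved in opposite directions in the kit pairs were 5 (epithelial-gated) and 1 (adenoma-gated) in place of 5 and 9, and those with groups that did not overlap were 4 and 9 in place of 4 and 0. The Lipf difference in adenoma-gated cells was -0.48 with the stricter gate and -0.45 without ApcMin replicate 2.

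Differences of the positive share (percentage points) turned sign within kit 2 (replicate block) for Gkn1 (-1.25) and Atp4a (-1.82), within kit 3 for Lipf (0.57), Pnliprp1 (-1.68), Gpx5 (2.24) and Bpifb5 (-4.13), and unthinned for Gpx5 (1.02). With each library left out they ran from 1.96 to 13.07 for Gkn1, 5.93 to 17.69 for Gkn3, 5.69 to 7.62 for Muc6, -0.64 to 1.99 for Atp4a, -0.71 to 0.43 for Lipf, -0.77 to 3.23 for Pnliprp1, -1.90 to 1.63 for Gpx5, 5.88 to 23.59 for Wfdc18, -2.05 to 6.54 for Bpifb5 and 3.85 to 15.69 for Ctse. Apart from the libraries left out, 63 of 70 share differences under the alternatives kept their direction. The causes were not tested. Free RNA limits readings of low levels outside adenoma-gated cells, and inside them for Pnliprp1 and Bpifb5 in the libraries where these were low. Having 1 library per group and kit limits all group comparisons.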
